A study of Mus musculus with 90 samples.

Results

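Mock-transduced bone marrow-derived macrophages of Irf8-/- mice, grown with M-CSF and RANKL, were compared between day 8 and day 4 of culture. The members are the libraries whose titles name an osteoclast culture, mock and day 8 (2 libraries) or mock and day 4 (3 libraries), which are 5 of the 90 libraries in the RPKM table. The comparison ran over all expressed genes: 11374 of 24543 listed genes reached 1 RPKM in at least 2 libraries of the transduction experiment. RPKM scales the reads of a gene by its length and by the mapped reads of the library. Irf8-/- cells lack the transcription factor IRF8, a brake on osteoclast formation, and in the transduction experiment all cultures were made from such cells. The labels call the control cultures mock and do not say what vector they received. Untransduced Irf8-/- cultures (IRF8KO, 3 libraries at day 8 and 3 at day 4) and Irf8-/- cultures given human wild-type IRF8 (hIRF8WT, 2 libraries at day 8 and 3 at day 4) were used to ask where the late change of mock cultures differed. Cells at day 0 had M-CSF alone. The spread between libraries was estimated over all 33 osteoclast-culture libraries of the transduction experiment. Mice of both sexes were used in the study, and the labels tie no library to an animal, a sex or a separate culture, so that p-values measure the spread between libraries only.

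RANKL is the cytokine that turns macrophage precursors into osteoclasts, the multinucleated cells that resorb bone. It signals through its receptor RANK and the adaptor TRAF6 to FOS and NFATc1, which switch on genes for cell fusion, acid secretion and collagen breakdown. RANKL also induces interferon-beta, which acts back on osteoclast precursors through factors that include STAT2 and IRF9 and bind a promoter sequence called the interferon-stimulated response element.

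The 5 libraries held 47.4 and 53.3 M alignments at day 8 and 25.96 M, 68.5 M and 41.2 M at day 4. A header line above their sample names gives all 5 the same prefix. Irf8 itself stood at 5.81 and 6.56 RPKM at day 8, against 6.90, 6.74 and 6.33 RPKM at day 4 (log2 change -0.09 ± 0.16 SE, limma, adjusted p = 0.70). Untransduced IRF8KO cultures had 6.22 to 7.08 RPKM at day 8 and 5.92 to 8.97 RPKM at day 4. At day 0 mock cells had 18.3 to 24.0 RPKM. The values are per gene and do not tell an intact transcript from one with a deleted part. Osteoclast markers were high on both days: Acp5, tartrate-resistant acid phosphatase, had 2208 and 1835 RPKM at day 8 and 2033, 2091 and 2044 RPKM at day 4, against 17.3 to 24.7 RPKM at day 0. The macrophage gene Lyz2, lysozyme, remained high as well, at 10267 and 8265 RPKM at day 8 and 10623, 10619.8 and 9405 RPKM at day 4. One technical measure moved with the day. The correlation across genes between a library's level, relative to all libraries, and the log10 of gene length was -0.31 and -0.20 in the day 8 libraries, and -0.01, 0.08 and 0.22 in the day 4 libraries, so that long genes read relatively lower at day 8. Values from a fit with this trend subtracted are given beside the lists and genes that it moved most. Lyz2, which did not pass as first fitted, passed as lower at day 8 with the trend subtracted (-0.47, limma, adjusted p = 0.0082).

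From day 4 to day 8 of RANKL, 25 of 26 interferon-stimulated genes fell, 25 of 40 genes of DNA replication and mitosis rose by smaller amounts, and 8 of 17 immediate early genes and 7 of 17 chemokine and cytokine genes rose, while Ctsk and Acp5, the most abundant osteoclast products, did not pass the test. Of the 11374 genes, 1676 were higher at day 8 (14.7% of those tested) and 1961 were lower (17.2%) at an adjusted p under 0.05 in limma with Benjamini-Hochberg adjustment, 32.0% in all. The median log2 change of all genes was -0.01. Most changes were small: 50 genes rose and 168 fell by a log2 change of 1 or more. The count rested on single libraries, with 1199 genes called without day 8 replicate 1 and 2147 without day 4 replicate 3.

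**Figure D1:**
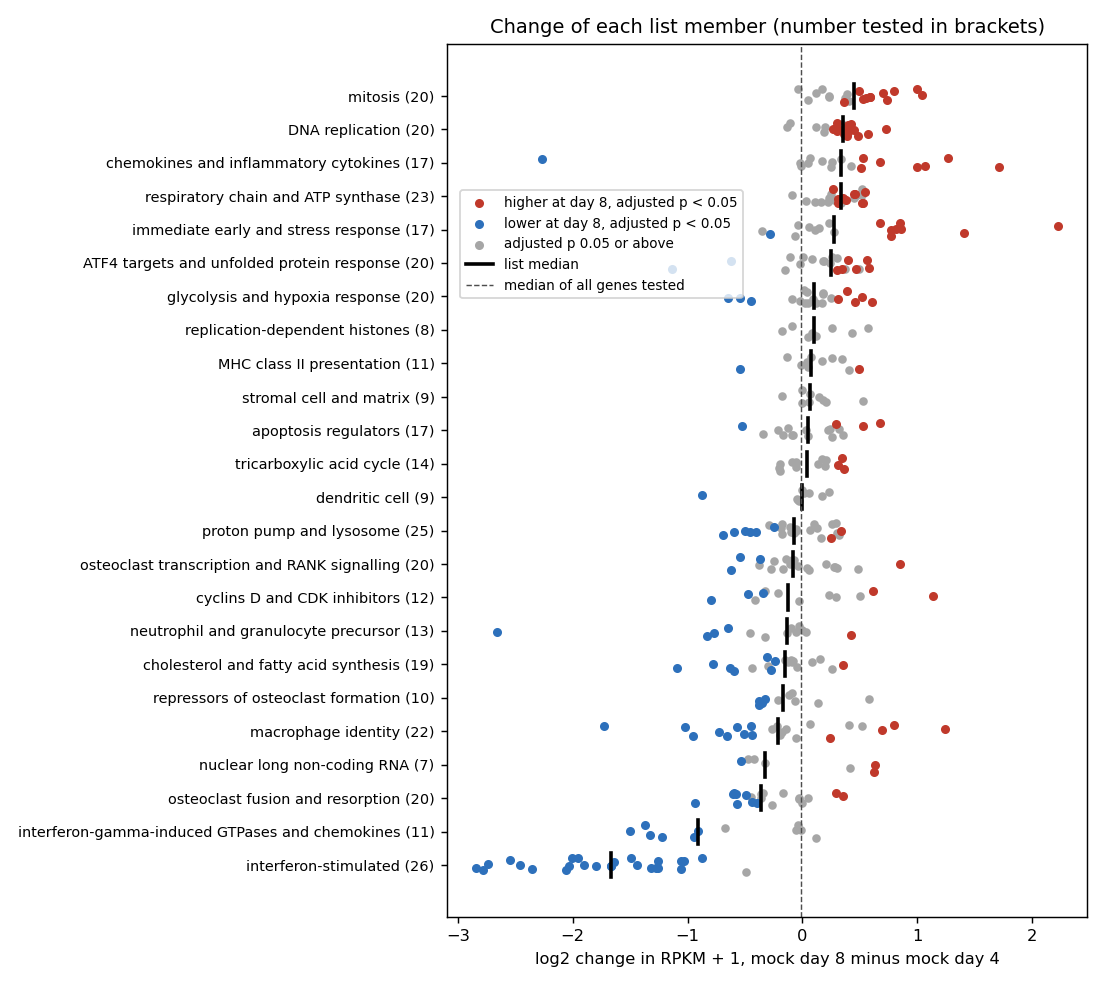
Log2 change in RPKM + 1 (x axis, mock day 8 minus mock day 4) of each tested member of 24 gene lists (rows, numbers tested in brackets); red and blue points passed the threshold, grey points did not, black bars are list medians and the dashed line is the median of all genes tested. The interferon-stimulated list lies lowest, with a median of -1.67, and the mitosis list highest, with a median of 0.45.

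Of 26 interferon-stimulated genes on the list, all of them tested, 25 were lower at day 8 and none was higher, with a median log2 change of -1.67 beside -0.01 over all genes; 17.2% of all genes tested were lower. The called members fell by log2 changes of -2.84 to -0.88. In these bulk cultures, fewer expressing cells and less RNA per cell cannot be told apart. The response element that the interferon factors bind, GAAA, 2 bases of any kind and GAAA again on either strand, occurred in 10 of the 20 promoter windows (50%) found for 18 of these genes, and in 3.35% of the 11208 windows found for all genes tested. A window runs from 250 bases before to 50 bases after a start site in the RefSeq table. Among all genes it was present in 2.49% of the windows of genes that rose and in 5.13% of those of genes that fell. A match is a description and not a site of binding. The 4 windows shown belong to the members with the smallest adjusted p that held a match, and the matches, overlapping ones joined, are in capitals (GRCm38.p6, each on its gene's strand).
Ifit3, chr19:34583279-34583578, plus strand: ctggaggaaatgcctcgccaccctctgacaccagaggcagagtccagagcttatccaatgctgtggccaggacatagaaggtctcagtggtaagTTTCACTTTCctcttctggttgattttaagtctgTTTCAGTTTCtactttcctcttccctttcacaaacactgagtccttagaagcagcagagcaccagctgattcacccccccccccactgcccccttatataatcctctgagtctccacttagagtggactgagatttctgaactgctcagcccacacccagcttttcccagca
Ifit1, chr19:34640639-34640938, plus strand: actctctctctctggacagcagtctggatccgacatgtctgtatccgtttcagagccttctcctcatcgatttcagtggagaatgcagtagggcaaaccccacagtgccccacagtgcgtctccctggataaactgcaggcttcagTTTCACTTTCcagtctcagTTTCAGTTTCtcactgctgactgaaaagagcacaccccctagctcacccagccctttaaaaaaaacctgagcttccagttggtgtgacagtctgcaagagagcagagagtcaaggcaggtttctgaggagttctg
Oas3, chr5:120777610-120777909, minus strand: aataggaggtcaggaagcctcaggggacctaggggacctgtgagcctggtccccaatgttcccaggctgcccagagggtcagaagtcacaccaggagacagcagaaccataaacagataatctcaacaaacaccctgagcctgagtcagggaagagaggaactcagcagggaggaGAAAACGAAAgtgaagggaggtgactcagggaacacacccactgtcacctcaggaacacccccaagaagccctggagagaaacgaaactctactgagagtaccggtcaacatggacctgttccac
Stat2, chr10:128270248-128270547, plus strand: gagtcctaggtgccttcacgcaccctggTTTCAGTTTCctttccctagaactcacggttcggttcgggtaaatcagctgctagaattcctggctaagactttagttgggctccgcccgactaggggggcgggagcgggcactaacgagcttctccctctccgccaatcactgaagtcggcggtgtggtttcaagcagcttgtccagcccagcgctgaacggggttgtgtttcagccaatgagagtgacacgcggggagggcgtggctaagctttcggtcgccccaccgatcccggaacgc

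The Ifit3 and Ifit1 windows hold 2 matches each, and those of Oas3 and Stat2 hold 1 each. Ifit3, which encodes an RNA-binding antiviral protein, had 2.99 and 5.37 RPKM at day 8, against 35.4, 22.6 and 47.7 RPKM at day 4 (log2 change -2.78 ± 0.24 SE, adjusted p = 1.6e-08). Its neighbour in the family, Ifit1, had 4.17 and 7.63 RPKM at day 8, against 39.4, 25.9 and 44.3 RPKM at day 4 (-2.46 ± 0.22, adjusted p = 2.2e-08). In both genes every day 8 library lay below every day 4 library. Irf7, the factor that amplifies interferon production, had 8.01 and 25.3 RPKM at day 8, against 126, 74.8 and 138 RPKM at day 4 (-2.84 ± 0.33, adjusted p = 1.2e-06). The 2'-5' oligoadenylate synthetase Oas3 had 4.56 and 13.3 RPKM at day 8, against 52.9, 38.4 and 64.9 RPKM at day 4 (-2.54 ± 0.25, adjusted p = 8.4e-08). Its relative Oasl2 had 4.89 and 17.6 RPKM at day 8, against 76.0, 53.3 and 80.7 RPKM at day 4 (-2.74 ± 0.29, adjusted p = 2.7e-07). Isg15, which encodes a ubiquitin-like modifier, had 12.03 and 26.1 RPKM at day 8, against 88.3, 49.1 and 95.2 RPKM at day 4 (-2.01 ± 0.28, adjusted p = 9.1e-06). In all these genes the groups did not overlap, as in 3612 of the 3637 genes called (99.3%).

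Components of the interferon pathway itself were among the genes that fell. Stat2 had 3.57 and 5.42 RPKM at day 8, against 18.1, 13.9 and 22.4 RPKM at day 4, and fell by 1.797 on the log2 scale (± 0.18 SE, adjusted p = 1e-07). Irf9, whose product binds DNA together with STAT2, fell by 1.06 (11.4 RPKM at day 8, against 24.3 RPKM at day 4, means of 2 and 3 libraries). The one member that did not pass was Mx1, an antiviral GTPase at 0.106 and 0.123 RPKM at day 8 and 0.579, 0.348 and 0.809 RPKM at day 4 (adjusted p = 0.060), and it passed with the length trend subtracted (adjusted p = 0.047). The libraries of a day were not alike in these genes. All 26 members were lower in day 8 replicate 1 than in replicate 2, where 67.3% of all genes tested were, and all 26 were lowest in replicate 2 among the day 4 libraries, where 28.7% of all genes tested were. When any one library was left out, 24 to 26 members passed, all lower, and 23 passed in a fit of the mock libraries of days 0, 4 and 8 alone.

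Of 11 tested genes induced more by interferon-gamma, 6 fell, none rose and 5 did not pass, with a median of -0.91. Of all genes tested, 17.2% were lower. Irgm1, a GTPase of defence against intracellular microbes, had 12.9 and 21.2 RPKM at day 8, against 53.9, 37.8 and 56.6 RPKM at day 4 (-1.499 ± 0.16, adjusted p = 3.5e-07). Igtp (-1.23) and Gbp3 (-1.33) also fell. The chemokine Cxcl10 had 12.4 and 13.6 RPKM at day 8 and 25.1, 14.3 and 27.1 RPKM at day 4 and missed the threshold (adjusted p = 0.064), which it passed with the length trend subtracted (adjusted p = 0.0147). Irf1 averaged 10.3 RPKM at day 8 and 10.7 RPKM at day 4 and did not pass. The DNA-binding protein gene Ifi209 belongs to the largest falls too, at 0.838 and 3.31 RPKM at day 8, against 14.9, 9.74 and 20.4 RPKM at day 4 (-2.45 ± 0.31, adjusted p = 3.4e-06). Of 11 genes of antigen presentation on MHC class II, 1 rose and 1 fell, beside 14.7% and 17.2% of all genes tested. Cd86, a co-stimulatory ligand, rose by 0.49. The protease gene Ctss, at 563 and 670.0 RPKM at day 8 against 941, 806 and 945 RPKM at day 4, fell by 0.54. Cd74, the invariant chain, had 74.1 and 71.0 RPKM at day 8 and 64.5, 52.1 and 48.6 RPKM at day 4 and did not pass (adjusted p = 0.17). Ctss no longer passed without day 8 replicate 1.

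**Figure D2:**
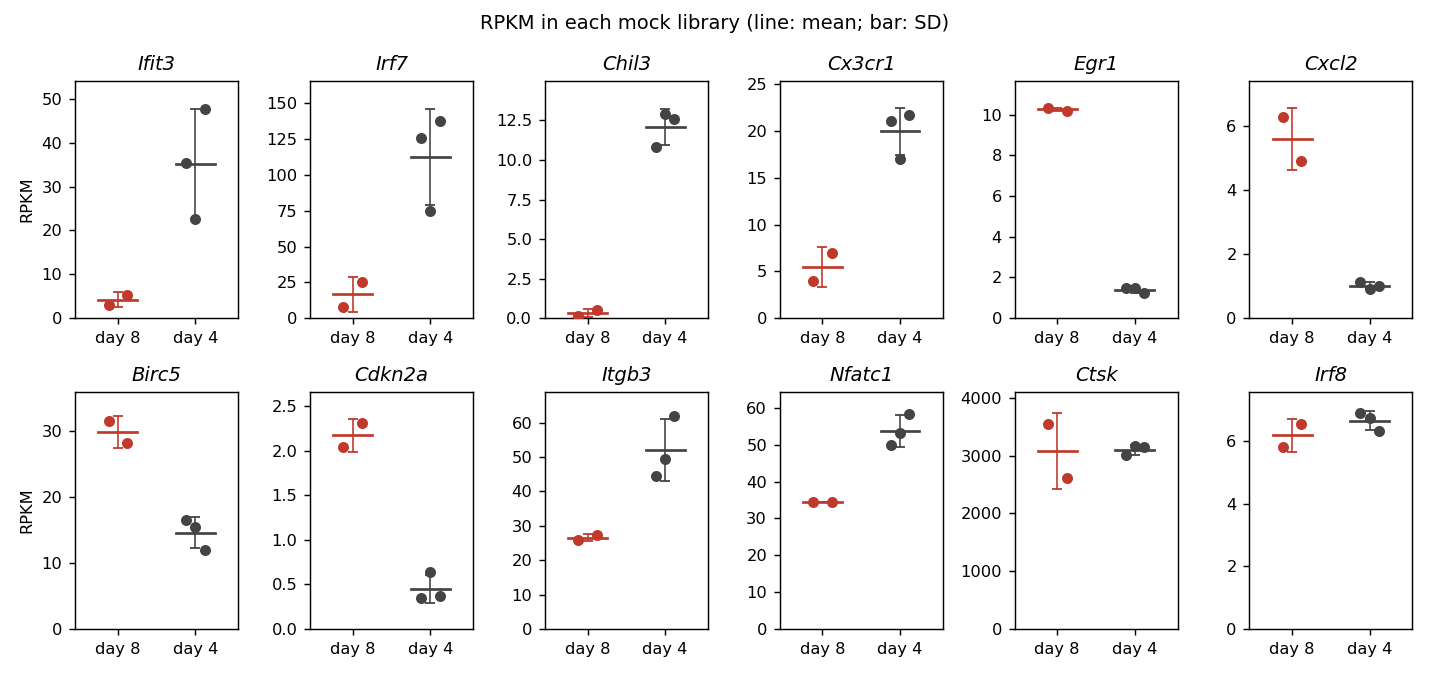
RPKM (y axis, from 0) of 12 genes in the 2 day 8 (red, left) and 3 day 4 (dark, right) mock libraries; each point is a library, the line is the mean and the bar the SD. Ifit3, Irf7, Chil3, Cx3cr1, Itgb3 and Nfatc1 are lower in every day 8 library, Egr1, Cxcl2, Birc5 and Cdkn2a are higher in every one, and Ctsk and Irf8 overlap.

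The largest fall of all named genes was that of Chil3, a chitinase-like protein of alternatively activated macrophages and neutrophil precursors. It had 0.140 and 0.512 RPKM at day 8, against 10.8, 12.9 and 12.6 RPKM at day 4 (-3.31 ± 0.15, adjusted p = 2.7e-14), and 144 to 188 RPKM at day 0. S100a9, a calcium-binding protein abundant in neutrophils and monocytes, had 0.138 and 0.0406 RPKM at day 8, against 3.43, 7.40 and 7.69 RPKM at day 4 (-2.66 ± 0.21, adjusted p = 1.8e-09). At day 0 it had 516 to 600.4 RPKM. Of 13 tested neutrophil and granulocyte precursor genes, 4 fell and 1 rose (5 and 0 with the length trend subtracted), beside 17.2% and 14.7% of all genes tested. The 14 genes of that list summed to 18.7 to 27.3 RPKM at day 8, against 32.5 to 41.1 RPKM at day 4. Of its granule genes, Mpo was at 0 in all 5 libraries. Ngp was at 0 in both day 8 libraries, against 0.869, 1.11 and 0.431 RPKM at day 4. Not all members were this low: 12 of the 14 were under 1 RPKM in each day 8 library, and 9 to 10 at day 4. Mmp8, the member of the highest mean level that did not pass, changed by -0.33. The part of remaining neutrophil-lineage cells in the falls of S100a9 and Chil3 was not tested. The markers of stromal cells gave no call in 9 tested genes, and the 20 listed genes summed to 5.06 to 13.9 RPKM at day 8 and 4.49 to 12.2 RPKM at day 4. B cell, T and NK cell and adipocyte lists gave no call in 1, 2 and 3 tested genes, except that the B cell gene Cd79b was lower with the length trend subtracted, no mast cell gene was tested, and Bst2, which is itself induced by interferon, was the only dendritic cell gene of 9 to change (-0.88), a call lost without day 8 replicate 1. Pf4, a platelet chemokine that macrophages also express and the only erythroid and megakaryocyte gene tested, rose by 1.41 ± 0.23, with 33.03 and 17.4 RPKM at day 8 and 8.13, 10.5 and 6.99 RPKM at day 4.

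Genes that mark macrophages changed in both directions, where 17.2% of all genes tested fell and 14.7% rose. Of 22 tested, 9 fell and 4 rose, with a median of -0.21, and without day 8 replicate 1 the falls numbered 3. With the length trend subtracted 12 fell and 4 rose, with a median of -0.44. Cx3cr1, the fractalkine receptor, had 3.95 and 6.99 RPKM at day 8, against 21.1, 17.1 and 21.8 RPKM at day 4 (-1.73 ± 0.18, adjusted p = 2.1e-07). The scavenger receptor Cd36 had 59.2 and 64.6 RPKM at day 8, against 121, 126 and 132 RPKM at day 4 (-1.02 ± 0.15, adjusted p = 1.4e-05). Apoe, a lipid carrier, had 683 and 775 RPKM at day 8, against 1461, 1331 and 1442 RPKM at day 4 (-0.95 ± 0.17, adjusted p = 0.00017). The M-CSF receptor Csf1r (-0.51) and Adgre1 (-0.45), which encodes F4/80, fell by less. The complement genes C1qa (1.24) and C1qb (0.80) and the scavenger receptor Marco (0.69) rose. Without day 8 replicate 1, Csf1r, Adgre1 and Marco no longer passed.

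Among osteoclast genes, Ctsk and Acp5, the most abundant products, did not pass the test. Of 20 genes of fusion and resorption, 8 fell and 2 rose, beside 17.2% and 14.7% of all genes tested, with a list median of -0.36. Ctsk, the collagen-degrading cathepsin K, had 3547 and 2619 RPKM at day 8 and 3007, 3162 and 3148 RPKM at day 4 (-0.03 ± 0.13, adjusted p = 0.90), and the day 8 libraries lay on either side of those of day 4. Itgb3, the beta-3 integrin by which osteoclasts hold on to bone, had 25.9 and 27.2 RPKM at day 8, against 44.6, 49.5 and 62.1 RPKM at day 4 (-0.93 ± 0.12, adjusted p = 2.8e-06), and its partner Itgav fell by 0.60. The co-stimulatory receptor gene Oscar had 37.9 and 29.2 RPKM at day 8, against 50.7, 53.1 and 46.6 RPKM at day 4 (-0.58 ± 0.10, adjusted p = 7.8e-05). Calcr, the calcitonin receptor, had 4.71 and 3.48 RPKM at day 8, against 5.13, 7.34 and 6.003 RPKM at day 4 (-0.49 ± 0.11, adjusted p = 0.0018); it no longer passed without day 8 replicate 2, nor did Itgav without day 8 replicate 1. Mmp14 (0.35), a membrane-bound collagenase, and Car2 (0.29), the carbonic anhydrase that supplies protons, rose. Car2 missed the threshold without day 8 replicate 1 or day 4 replicate 3, and Mmp14 in all fits that left out a library. The falls numbered 5 to 8 in those fits and 3 in a fit of the mock libraries of days 0, 4 and 8 alone.

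In the RANK pathway and its transcription factors, 1 of 20 genes rose and 3 fell, beside 14.7% and 17.2% of all genes tested. Nfatc1, the factor that drives the osteoclast programme, had 34.5 RPKM in both day 8 libraries, against 49.9, 53.1 and 58.4 RPKM at day 4 (-0.62 ± 0.12, adjusted p = 0.00041). Traf6 had 5.55 and 6.76 RPKM at day 8, against 8.70, 9.41 and 10.2 RPKM at day 4 (-0.55 ± 0.09, adjusted p = 7.1e-05). Fos, which acts upstream of Nfatc1 in this pathway, went the other way, with 174 and 194 RPKM at day 8 against 105, 99.9 and 99.5 RPKM at day 4 (0.85 ± 0.08, adjusted p = 1e-07). Tyrobp, the adaptor of several co-stimulatory receptors, had 1504 and 1349 RPKM at day 8 and 1268, 1226 and 1042 RPKM at day 4 and did not pass (adjusted p = 0.11). Of 10 tested repressors of osteoclast formation, 4 fell and none rose, by log2 changes of -0.38 to -0.32: Rbpj, Bcl6, Lilrb4a and Tnfaip3. Leaving out any one library left 0 to 3 of these falls, 0 without day 8 replicate 1, and with the length trend subtracted Rbpj and Bcl6 no longer passed.

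The proton pump and lysosome list showed 6 falls and 2 rises among 25 genes, with a median of -0.08, and leaving out any one library left 3 to 5 falls. Over all genes tested, 17.2% fell and 14.7% rose. The cholesterol transporter gene Npc1 had 29.9 and 38.8 RPKM at day 8, against 50.1, 54.5 and 62.9 RPKM at day 4 (-0.69 ± 0.12, limma, adjusted p = 0.00013). The pump subunit Atp6v1a had 197 and 204 RPKM at day 8, against 281, 307 and 327 RPKM at day 4 (-0.60 ± 0.13, adjusted p = 0.0010), whereas Atp6v0b, another subunit, had 733 and 657 RPKM at day 8 and 626, 591 and 529 RPKM at day 4 and did not pass (adjusted p = 0.13). The lysosomal proteases Ctsb (-0.46) and Ctsd (-0.50) fell, and Ctsl (0.33) and Ctsz (0.25) rose. Ctsd was no longer called without day 8 replicate 1, day 4 replicate 1 or day 4 replicate 3. Ctsz kept its call only without day 4 replicate 1, and Ctsb lost its call without day 8 replicate 2.

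Among genes of cell division, those that passed were higher at day 8. Of 20 DNA replication genes, 14 rose and none fell (median 0.35), and of 20 mitosis genes, 11 rose and none fell (median 0.45), beside 14.7% of all genes tested. Birc5, survivin, had 31.6 and 28.1 RPKM at day 8, against 16.5, 15.4 and 11.9 RPKM at day 4 (0.99 ± 0.11, adjusted p = 5.1e-07). The cyclin gene Ccnb2 had 51.8 and 47.6 RPKM at day 8, against 27.0, 23.6 and 20.8 RPKM at day 4 (1.04 ± 0.15, adjusted p = 2.3e-05). Its kinase partner Cdk1 had 36.9 and 36.4 RPKM at day 8, against 23.2, 22.8 and 19.1 RPKM at day 4 (0.74 ± 0.10, adjusted p = 5.5e-06). These 3 genes differed by 1.67-fold to 2.05-fold in RPKM + 1, and in each the day 8 libraries lay above all day 4 libraries. Of all genes called, 99.3% had no overlap between the days. Rrm1, a subunit of ribonucleotide reductase, had 47.7 and 58.8 RPKM at day 8, against 42.1, 38.8 and 37.2 RPKM at day 4 (0.42 ± 0.09, adjusted p = 0.00083). Top2a, a topoisomerase, had 42.9 and 51.6 RPKM at day 8 and 42.0, 43.7 and 44.2 RPKM at day 4 and did not pass (adjusted p = 0.62). Leaving out a library gave 6 to 14 replication genes and 10 or 11 mitosis genes higher, the 6 without day 8 replicate 2. With the length trend subtracted, 10 and 13 were higher, and in a fit of the mock libraries of days 0, 4 and 8 alone, 0 and 6.

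Of 12 tested cyclins D, their kinases and inhibitors, 2 rose and 3 fell, beside 14.7% and 17.2% of all genes tested. Cdkn2a, the locus of p16 and p19, had 2.04 and 2.31 RPKM at day 8, against 0.348, 0.633 and 0.367 RPKM at day 4 (1.14 ± 0.17, adjusted p = 2.1e-05). Its neighbour Cdkn2b, p15, had 8.07 and 7.06 RPKM at day 8, against 5.92, 4.16 and 3.89 RPKM at day 4 (0.61 ± 0.15, adjusted p = 0.0029), and no longer passed with the length trend subtracted or without day 8 replicate 1. Ccnd2, cyclin D2, fell by 0.80, and Cdkn1a (-0.34) and Cdkn1c (-0.48) fell too, though neither of these passed without day 8 replicate 1. Cdkn1c also missed the threshold without day 4 replicate 2 or day 4 replicate 3. In the promoter windows found for 31 of the 40 replication and mitosis genes, CCAAT on either strand, the core of the NF-Y site, was present in 25 of 36 (69.4%), beside 38.2% of all windows. The cell cycle homology region TTTGAA was present in 38.9% of them, beside 12.3% of all.

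Of 17 tested immediate early and stress response genes, 8 rose and 1 fell, beside 14.7% and 17.2% of all genes tested. The fall was that of Atf3, by 0.28. Egr1, a zinc-finger factor induced within minutes by growth factors and stress, had 10.3 and 10.2 RPKM at day 8, against 1.5, 1.502 and 1.22 RPKM at day 4 (2.23 ± 0.20, adjusted p = 2e-08). Ier2 had 50.9 and 44.2 RPKM at day 8, against 20.2, 18.02 and 14.2 RPKM at day 4 (1.40 ± 0.21, adjusted p = 2e-05). Junb (0.67), Dusp1 (0.85), Zfp36 (0.77), Ier3 (0.82) and Egr2 (0.77) rose with Fos and Egr1, and 7 or 8 members were higher when any one library was left out. Junb no longer passed without day 8 replicate 2, day 4 replicate 2 or day 4 replicate 3. Atf3 passed only where day 4 replicate 2 was the library left out. Hmox1, the most abundant member that did not pass, had 213 and 215 RPKM at day 8 and 217, 189 and 191 RPKM at day 4.

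Of 17 tested chemokines and inflammatory cytokines, 7 rose and 1, Ccl5, fell, beside 14.7% and 17.2% of all genes tested. Cxcl2, a neutrophil attractant, had 6.29 and 4.92 RPKM at day 8, against 1.13, 0.911 and 1.00 RPKM at day 4 (1.71 ± 0.22, adjusted p = 3.4e-06). The monocyte attractant Ccl7 had 8.75 and 7.17 RPKM at day 8, against 3.13, 2.72 and 2.29 RPKM at day 4 (1.27 ± 0.16, adjusted p = 3.3e-06), and Ccl2 rose by 1.07. Ccl5 had 0.957 and 1.84 RPKM at day 8, against 11.98, 9.35 and 9.94 RPKM at day 4 (-2.27 ± 0.31, adjusted p = 7e-06). Ccl9, made in quantity by osteoclasts, had 456 and 375 RPKM at day 8, against 292, 303 and 265 RPKM at day 4, and rose by 0.53, while Ccl3, at 39.2 and 29.1 RPKM at day 8 and 33.7, 38.9 and 30.4 RPKM at day 4, did not pass (adjusted p = 0.96). Ccl9 no longer passed without day 8 replicate 1.

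The other large rises were of genes of several kinds. Pgf, placental growth factor, had 16.4 and 19.5 RPKM at day 8, against 5.11, 3.81 and 3.44 RPKM at day 4 (1.90 ± 0.13, adjusted p = 4.4e-10), and at most 0.478 RPKM at day 0. Il4i1, a secreted amino acid oxidase, had 6.43 and 7.57 RPKM at day 8, against 2.21, 1.88 and 1.51 RPKM at day 4 (1.48 ± 0.16, adjusted p = 3.8e-07). Rpph1, the RNA of ribonuclease P and a short transcript, had 18.7 and 20.2 RPKM at day 8, against 1.21, 2.01 and 1.71 RPKM at day 4 (2.96 ± 0.40, adjusted p = 6.7e-06). Churc1 had 746 and 390.2 RPKM at day 8, against 144, 167 and 138 RPKM at day 4, and no longer passed without day 8 replicate 1 (adjusted p = 0.057, 0.00071 with it). Ppp1r16b had 12.7 and 6.34 RPKM at day 8, against 2.32, 2.43 and 2.24 RPKM at day 4 (1.59 ± 0.24, adjusted p = 2.7e-05). Nanog was listed at 18.04 and 8.03 RPKM at day 8, against 3.06, 3.49 and 2.85 RPKM at day 4 (1.67 ± 0.55, limma, adjusted p = 0.023). Reads of its processed copies elsewhere in the genome cannot be told from its own. It missed the threshold without day 8 replicate 1 or day 4 replicate 3.

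Most changes of metabolic genes were small, and several depended on single libraries. The counts that follow stand beside 14.7% higher and 17.2% lower over all genes tested. Of 23 genes of the respiratory chain and ATP synthase, 10 rose and none fell, with a median of 0.33, but 2 rose with the length trend subtracted, 0 without day 8 replicate 1 and 4 without day 4 replicate 3. Cox6c, a subunit of cytochrome c oxidase, had 501 and 354 RPKM at day 8, against 327, 297 and 254 RPKM at day 4 (0.53 ± 0.14, adjusted p = 0.0043). Of 14 genes of the tricarboxylic acid cycle, 3 rose, among them Fh1, fumarase, by 0.34, and none did without day 8 replicate 1. In glycolysis and the response to hypoxia, 5 of 20 rose and 3 fell: Tpi1 (0.52) and Gapdh (0.39) rose, and the hexokinases Hk1 (-0.45) and Hk2 (-0.55) and the growth factor Vegfa (-0.65) fell. The rises numbered 2 without day 8 replicate 1, and 3 without day 8 replicate 2, day 4 replicate 2 or day 4 replicate 3. In sterol and fatty acid synthesis 7 of 19 fell and 1 rose, with Scd2, a desaturase, at 0.531 and 0.866 RPKM at day 8 against 2.52, 2.49 and 2.82 RPKM at day 4 (-1.09 ± 0.12, adjusted p = 7.3e-07). The falls numbered 3 with the length trend subtracted and 2, with no rise, without day 8 replicate 1. Among ATF4 targets and genes of the unfolded protein response, 6 of 20 rose and 2 fell, with the chaperone gene Creld2 up by 0.58 and the serine synthesis gene Phgdh down by 1.13. Without day 8 replicate 1, 2 rose and none fell, and 2 rose without day 8 replicate 2 or with the length trend subtracted. Of 17 regulators of apoptosis 3 rose and 1 fell, Bcl2, by 0.53, and with the length trend subtracted none rose. Without day 8 replicate 1, Cox6c, Fh1, Gapdh, Hk2 and Phgdh no longer passed. Gapdh also missed the threshold without day 8 replicate 2, day 4 replicate 2 or day 4 replicate 3.

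The remaining lists concern RNA classes. None of 8 tested replication-dependent histones passed, where 14.7% of all genes tested rose and 17.2% fell. Of 7 long non-coding RNAs, Gas5 (0.62) and Snhg1 (0.63), which host small nucleolar RNAs, rose and Firre (-0.53) fell, while Malat1 had 59.4 and 72.7 RPKM at day 8 and 58.5, 104 and 127 RPKM at day 4. Xist, the RNA of the inactive X chromosome, had 16.4 and 22.1 RPKM at day 8, against 36.8, 42.0 and 60.5 RPKM at day 4 (-1.21 ± 0.28, limma, adjusted p = 0.0022). It no longer passed without day 8 replicate 1, nor did Snhg1 and Firre. Snhg1 also missed the threshold without day 8 replicate 2, without day 4 replicate 3 and with the length trend subtracted. Xist was the 1 gene tested of 5 sex-linked genes listed, and the other 4 were under 1 RPKM in every mock library of both days.

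**Figure D3:**
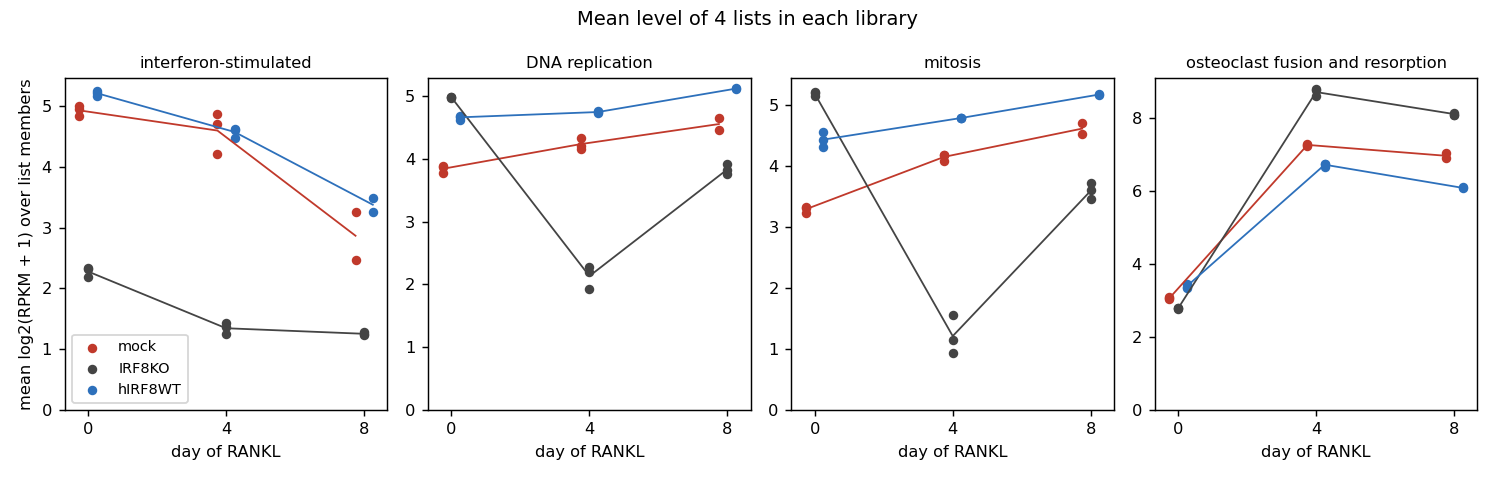
Mean log2(RPKM + 1) over the members of 4 lists (y axis, from 0) in each library of mock (red), IRF8KO (dark) and hIRF8WT (blue) cultures at days 0, 4 and 8 of RANKL (x axis); points are libraries and lines join group means. Interferon-stimulated genes are low in IRF8KO at all 3 days and lower at day 8 than at day 4 in mock and hIRF8WT, and the dip of replication and mitosis genes at day 4 is seen in IRF8KO and not in mock.

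Whether the late change of mock cultures differed from that of untransduced IRF8KO cultures was tested by the difference of the 2 changes over 11956 genes in 50 libraries. The change was higher in mock for 358 genes (2.99% of those tested) and lower for 1525 (12.8%), 15.7% together; with median-of-ratios scaling the split was 874 higher and 1109 lower, and with the length trend subtracted 942 and 1297, and the median difference of all genes was -0.11 as first fitted. In a fit of these groups alone, 52 were higher and 338 lower. Around the group mean, the values of single libraries had an SD across genes of 0.257 to 0.480 in the 6 IRF8KO libraries, against 0.0891 to 0.125 in the 5 mock libraries, and without day 4 replicate 3 of IRF8KO 849 genes were higher and 2160 lower.

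Of 26 interferon-stimulated genes tested, 25 had a lower change in mock than in IRF8KO, beside 12.8% of all genes tested. In single IRF8KO libraries 12 to 13 of the 26 were under 1 RPKM at day 8 and 10 to 11 at day 4, so that these had little room to fall on this scale, and the difference for them cannot be told apart from their low level; 1 of the 26 was under 1 RPKM in each day 4 library of mock. The list averaged 2.47 and 3.26 log2(RPKM + 1) in the day 8 libraries of mock, against 4.71, 4.21 and 4.87 at day 4, and in IRF8KO it averaged 1.22 to 1.29 at day 8, against 1.24 to 1.42 at day 4. Ifit3 in IRF8KO had 0, 0 and 0.138 RPKM at day 8, against 0.691, 0.617 and 1.15 RPKM at day 4. Every mock library of either day lay above every IRF8KO library of either day. Leaving out a library gave 16 to 25 lower members.

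Cell division genes had a larger change in IRF8KO. Of 20 mitosis genes, 20 had a lower change in mock, and of 20 replication genes 18 did, with median differences of -1.89 and -1.44. Of all genes tested, 12.8% had a lower change in mock. Birc5 in IRF8KO had 19.6, 22.2 and 23.8 RPKM at day 8, against 1.76, 0.483 and 2.21 RPKM at day 4, a change of 3.27 beside 0.99 in mock. Cdk1 in IRF8KO had 17.4, 26.4 and 19.99 RPKM at day 8, against 2.65, 1.79 and 3.98 RPKM at day 4, a change of 2.57 beside 0.74 in mock. In every library of IRF8KO at day 4 these genes were below every library of mock. Resorption genes stood the other way: the list averaged 6.89 to 7.03 log2(RPKM + 1) at day 8 and 7.21 to 7.29 at day 4 in mock, below 8.08 to 8.14 at day 8 and 8.58 to 8.77 at day 4 in IRF8KO. In this list 4 of 20 had a higher change in mock and none a lower one, beside 2.99% and 12.8% of all genes tested. Ctsk reached 11352 to 12314 RPKM at day 8 and 11089 to 17939 RPKM at day 4 in IRF8KO.

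The genes described next are among the 4 largest differences in each direction. Npy, neuropeptide Y, had 86.6 and 86.2 RPKM at day 8 and 143, 117 and 135 RPKM at day 4 in mock, and 146, 263 and 251 RPKM at day 8 and 8.25, 7.23 and 18.1 RPKM at day 4 in IRF8KO, a difference of -4.83 ± 0.40 (adjusted p = 9e-12). Mmp12, macrophage elastase, had 78.1 and 39.2 RPKM at day 8 and 43.5, 45.6 and 45.6 RPKM at day 4 in mock, and 489 to 834 RPKM at day 8 and 33.1 to 41.6 RPKM at day 4 in IRF8KO (-3.70 ± 0.28, adjusted p = 2.2e-12). Cd36 fell in mock and rose in IRF8KO, where it had 319.5, 159.8 and 170.4 RPKM at day 8 against 33.8, 34.8 and 17.6 RPKM at day 4. Il4i1, which rose in mock, had 0.647, 1.16 and 1.40 RPKM at day 8 in IRF8KO, against 7.12, 4.18 and 8.10 RPKM at day 4 (difference 3.31 ± 0.30, adjusted p = 5.9e-11).

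**Figure D4:**
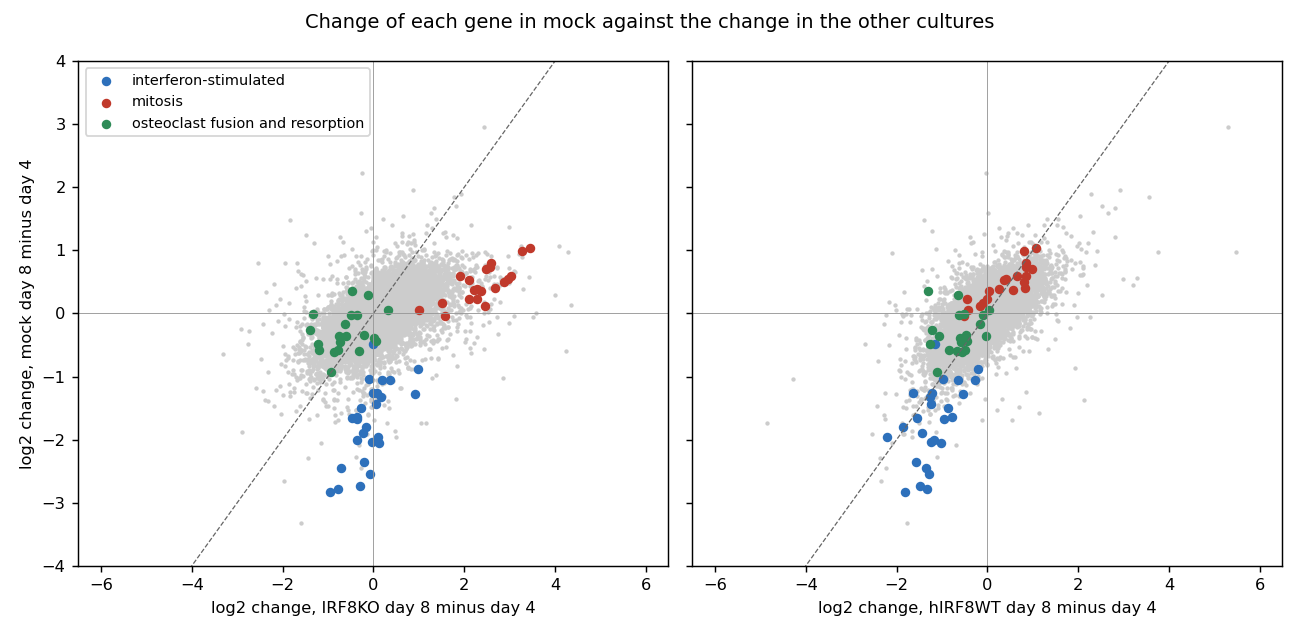
Log2 change from day 4 to day 8 in mock (y axis) against that in IRF8KO (left panel, x axis) and in hIRF8WT (right panel, x axis) for 11374 genes (grey), with 3 lists in colour; the dashed line marks equal change. Interferon-stimulated genes lie near 0 in IRF8KO and below 0 in hIRF8WT, and mitosis genes lie to the right of the line in IRF8KO and along it in hIRF8WT.

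Across 11374 genes the change in mock and the change in hIRF8WT had a Pearson correlation of 0.68 (Spearman 0.67), and those in mock and IRF8KO of 0.57 (Spearman 0.62); no library is shared, genes are not independent replicates, and length trends were present in all 3 cultures. In that header line, the day 4 libraries of hIRF8WT carry another prefix than its day 8 libraries and all mock libraries. The prefix and the day can therefore not be told apart in hIRF8WT. Of 11374 genes, the change was higher in mock for 682 (6.00%) and lower for 378 (3.32%), 9.32% together, and with median-of-ratios scaling for 535 and 527. Leaving out a library gave 507 to 892 called genes, the 507 without day 8 replicate 1 of hIRF8WT.

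Interferon-stimulated genes had a median change of -1.67 in mock and of -1.23 in hIRF8WT. Of 26, 6 had a lower change in mock and none a higher one, beside 3.32% and 6.00% of all genes tested. The count of lower members ran from 0 to 13 when a library was left out. Ifit3 in hIRF8WT had 4.19 and 4.85 RPKM at day 8, against 12.5, 12.3 and 13.5 RPKM at day 4, a smaller change than in mock (difference -1.46 ± 0.34, adjusted p = 0.0068). For Irf7 the difference of -1.03 ± 0.47 did not pass (adjusted p = 0.18). No mitosis gene of 20 and 1 replication gene of 20 passed the test of a difference in change, beside 9.32% of all genes tested. Egr1 had 12.5 and 11.7 RPKM at day 8 and 13.7, 12.2 and 11.6 RPKM at day 4 in hIRF8WT, and the mock libraries of day 8 lay below the lowest of these (difference 2.27 ± 0.28, adjusted p = 5.8e-06). Cd24a, a surface glycoprotein of immature blood cells, had 41.9 and 38.3 RPKM at day 8 and 22.2, 20.2 and 17.9 RPKM at day 4 in mock, and 7.08 and 7.06 RPKM at day 8 and 33.3, 34.9 and 32.9 RPKM at day 4 in hIRF8WT (difference 3.07 ± 0.22, adjusted p = 8e-10). Irf8 levels were 13.7 and 12.5 RPKM at day 8 and 25.9, 22.5 and 25.4 RPKM at day 4 in hIRF8WT; whether reads of the human construct are among them was not tested. Among dendritic cell genes 5 of 9 had a higher change in mock, and among stromal genes 3 of 9, beside 6.00% of all genes tested. The 20 stromal genes summed to 4.49 to 13.9 RPKM in the 5 libraries of mock, against 24.7 to 49.4 RPKM in the day 4 libraries of hIRF8WT, and their part in these differences was not tested.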

How the data were processed

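Cultured bone marrow-derived macrophages were profiled by RNA sequencing of total RNA. The authors deposited 1 table of RPKM values for 90 libraries and 24543 genes; no source used here names its annotation. The submitters' processing notes name CASAVA 1.8.4, bcl2fastq 2.17.1, TopHat2 2.1.0 and build mm10. Library columns were matched to samples by title. The 5 mock libraries had 25.96 to 68.5 M alignments.

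Values were taken as log2(RPKM + 1), which understates changes of low genes. Genes that reached 1 RPKM in 2 or more libraries were fitted with limma 3.58.1 in R 4.3.3 (1 mean per group, empirical Bayes with a mean-variance trend, two-sided), and p-values were adjusted by Benjamini-Hochberg over all genes tested, with 0.05 as threshold. Differences between changes were interaction contrasts, over 33 libraries for hIRF8WT and 50 for IRF8KO. Fold changes are on the log2(RPKM + 1) scale, day 8 minus day 4, and ± is the standard error unless named SD. The fit was tested on simulated data. Gene lengths came from GENCODE for the length trend and promoters from RefSeq, GRCm38.p6.

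The genes named are Irf8, the 8 largest rises and falls with at least 5 RPKM in the higher group and no overlap, up to 3 called members and 1 uncalled member of each of 30 lists, and the 4 largest differences in each direction; a few more list members are named as examples, chosen after their values were seen. Members and lists were chosen with earlier results of these data known, and no list was given a test. Alternatives were another pseudocount, filters, scaling, length trend, replicate block, other sets of libraries and leaving out each library. The other tables of the series were not used here. One gene among the list members is not reported here.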

Additional observations from a re-analysis of the deposited data

Results flagged for a closer look

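The results listed here were picked out because an interaction contrast in limma found that the change from day 4 to day 8 in mock cultures differed from the change in another culture. Against IRF8KO, 358 genes had a higher change in mock and 1525 a lower one. Against hIRF8WT, 682 were higher and 378 lower.

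Against IRF8KO, the largest differences upward were those of Tmem176a (3.35), a membrane protein of myeloid cells, Il4i1 (3.31), Cbr2 (2.71), a carbonyl reductase, and Ms4a4a (2.68), a membrane protein of macrophages. Tmem176a had 24.1 and 32.9 RPKM at day 8 and 17.9, 16.5 and 13.1 RPKM at day 4 in mock, and 1.47, 4.63 and 4.74 RPKM at day 8 and 24.5, 17.5 and 32.7 RPKM at day 4 in IRF8KO. The largest downward were Npy (-4.83), Serpinb9b (-4.22), a protease inhibitor, Cd36 (-3.88) and Mmp12 (-3.70). Serpinb9b had 3.15 and 1.96 RPKM at day 8 and 2.33, 2.05 and 2.25 RPKM at day 4 in mock, and 39.2, 19.5 and 22.4 RPKM at day 8 and 0.453, 0.460 and 0.0785 RPKM at day 4 in IRF8KO. These 8 genes passed under every alternative tried.

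Against hIRF8WT, the largest upward were Tgoln2 (3.24), a Golgi protein, Cd24a (3.07), Il4i1 (2.88) and Pira1 (2.52), a paired immunoglobulin-like receptor. Tgoln2 was uneven within a group, with 0.291, 0.0916 and 5.53 RPKM in the mock libraries of day 4. The largest downward were Rplp2-ps1 (-4.50), Rpl37rt (-2.79), Rpl34-ps1 (-2.77) and Pira4 (-2.73). The ribosomal protein copies and the Pira genes share reads with near-identical genes, so their values are uncertain. Tgoln2, Pira1, Pira4, Rplp2-ps1 and Rpl37rt each missed the threshold in some fits that left out a library, while Cd24a and Il4i1 passed in all.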

How the results depend on the processing

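For mock day 8 against day 4, the 3637 calls became 919 when the spread was estimated over all 50 osteoclast-culture libraries and 917 over the mock libraries of days 0, 4 and 8 alone, an alternative chosen after seeing the data; leaving out a library gave 1199 to 3568. For the difference from IRF8KO, 1883 calls became 390 in the groups compared alone, and leaving out a library gave 1222 to 3009. For the difference from hIRF8WT, 1060 calls became 2952 in the groups compared alone, and leaving out a library gave 507 to 892. The causes were not tested. The replicate block gave 3369, 1898 and 1039 calls. Same-numbered mock libraries had deviations correlated at 0.22 and -0.39. With 2 day 8 libraries the deviations mirror each other, so this check cannot tell whether the numbers pair the libraries. With the length trend subtracted, 2788 genes were called, 2156 of them among the 3637. Under scaling or the length trend, 44.1% or 42.1% of the calls against IRF8KO were higher in mock, beside 19.0% as reported.

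Of 74 named calls, 37 changed in some alternative, and 101 of 1106 values missed the threshold. Of these, 30 did so in the fit of the mock libraries alone and 27 with the spread over all 50 osteoclast-culture libraries. Among fits that left out a library, most losses came without day 8 replicate 1. Only 1 value turned direction, that of Sdhd, a subunit of succinate dehydrogenase, at -0.025 with the length trend subtracted (limma, adjusted p = 0.80). Day 8 rests on 2 libraries, and RPKM carries no count error.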
